A study of Mus musculus with 6 samples.

Results

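The 10 genes described here mark brain endothelial cells and the blood-brain barrier that these cells form: Cldn5, Ocln, Pecam1, Slc2a1, Mfsd2a, Slco1a4, Abcb1a, Flt1, Kdr and Tek. They were picked by gene symbol for this role, with earlier results of these data known, and no measured value entered the rule. Each symbol matched 1 of the 38087 genes in the deposited table. By the study's methods, RNA was taken from the cerebrum, with cortex and hippocampus and without olfactory bulb, cerebellum and medulla, of untreated 24-month-old mice on a C57BL/6 background. There were 3 wild-type (WT) mice and 3 Sgo1-/+ mice, which carry 1 working copy of Shugoshin-1 (Sgo1), a protector of chromosome cohesion, in every cell of the body, and each mouse gave 1 library. Each group held 1 male, which was replicate 1 in WT and replicate 2 in Sgo1-/+, and 2 females. Run 258 sequenced all WT libraries and run 259 all Sgo1-/+ libraries, and genotype and run cannot be told apart.

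Capillaries of the brain differ from those of most organs. Their endothelial cells seal the space between neighbours with tight junctions and take up very little by vesicles. Many nutrients and drugs are moved by dedicated transporters. Wnt ligands from neural cells hold this barrier state, while vascular endothelial growth factor (VEGF) and angiopoietin receptors govern the growth and stability of the vessels. Endothelial cells are a minor share of brain cells, and in RNA from whole tissue fewer endothelial cells and less RNA per endothelial cell cannot be told apart.

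Total estimated counts ran from 11123917 to 12505561 per library. Sgo1 itself had 2.22 ± 3.85 normalized counts in WT and 2.00 ± 1.99 in Sgo1-/+ (SD, n = 3), which is under 3 counts and too low to check the genotype labels. Several libraries stood apart in markers of other tissue. WT replicate 1 went against the stated dissection. It was highest for all 14 cerebellum and brain stem markers, with a summed level of 24261 normalized counts against 547 to 1551 in the other 5 libraries, and lowest for 9 of 10 cerebral cortex markers, with 4568 against 15202 to 18663. Sgo1-/+ replicate 1 was highest for all 6 blood markers, at 17062 normalized counts against 1393 to 6360. Choroid plexus markers summed to 31778 in WT replicate 1 and 37876 in Sgo1-/+ replicate 3, and to between 3571 and 12970 in the other 4 libraries. Vascular fibroblast markers summed to 507 in Sgo1-/+ replicate 2 and to between 1398 and 2271 elsewhere. The part of these differences in the results that follow was not tested, except where a value without a library is given.

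The libraries allow 1 comparison, of the aged Sgo1-/+ brain with the WT brain of the same age. None of the 10 genes passed an adjusted p of 0.05 (edgeR quasi-likelihood test, Benjamini-Hochberg adjustment over 16337 genes), and the share of all tested genes that passed was 0.0%. At an unadjusted p under 0.05 there were 333 genes, 132 higher and 201 lower in Sgo1-/+, or 2.04% of those tested, and none of the 10 was among them. DESeq2 called 3 genes, limma on the deposited normalized values 11, and limma on log2 of DESeq-normalized counts 0, again without any of the 10. All 10 genes passed the filter on low counts, and their log2 fold changes ran from -0.32 for Mfsd2a to 0.41 for Pecam1, with a median of 0.02 against 0.00 for all tested genes. Slco1a4, a transporter, was the only one of the 10 with all 3 Sgo1-/+ libraries under all 3 WT libraries, an arrangement found in 3.57% of tested genes. Flt1, a VEGF receptor, was the only one with all 3 Sgo1-/+ libraries above WT, found in 3.24%. Values below are normalized counts, that is, estimated counts scaled to a common library size, with the log2 fold change of Sgo1-/+ against WT, and permutation tests are exact and two-sided; 3 libraries against 3 allow 20 groupings and a smallest p of 0.1.

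**Figure D1:**
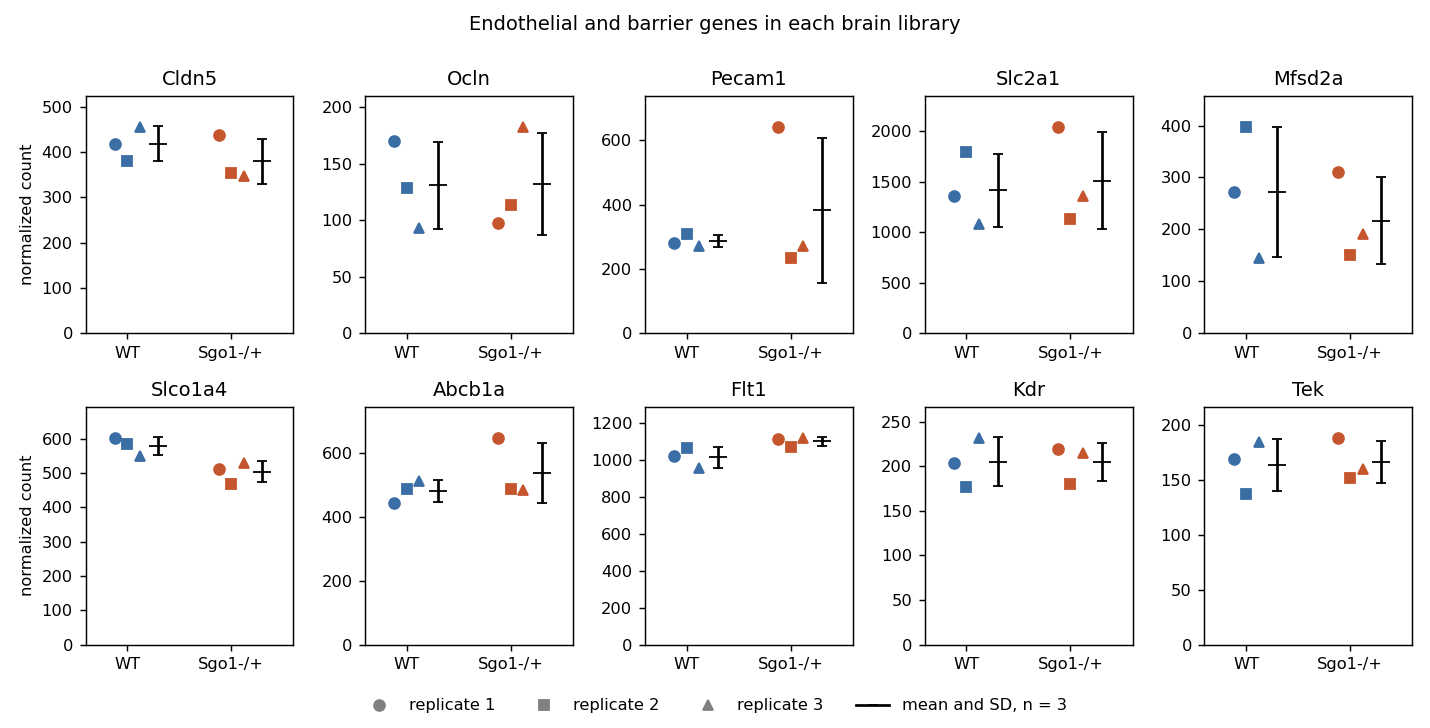
Normalized counts of each of the 10 genes (vertical axis, from 0) in the 3 WT (blue) and 3 Sgo1-/+ (orange) libraries, with circles, squares and triangles for replicates 1, 2 and 3 and bars for the mean ± SD. The groups do not overlap for Slco1a4 and Flt1, and Pecam1 has 1 library at 642 against 234 to 309 in the other 5.

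Cldn5 (ENSMUSG00000041378, mm10 chr16:18776847-18778260, plus strand, a gene of 1 exon) encodes claudin-5, the chief sealing protein of endothelial tight junctions. Normalized counts, in the order of replicates 1 to 3 here and below, were 418, 379 and 456 in WT and 437, 353 and 347 in Sgo1-/+. Sgo1-/+ replicate 1 lay among the WT libraries and the other two Sgo1-/+ libraries lay under them. The means were 418 ± 38.8 in WT and 379 ± 50.5 in Sgo1-/+ (SD, n = 3), a log2 fold change of -0.14 (SE 0.141, 95% interval -0.48 to 0.19, edgeR adjusted p = 0.9999) with an exact permutation p of 0.3. The fold change stayed below 0 with each library left out, between -0.26 and -0.07.

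Ocln (ENSMUSG00000021638, chr13:100496507-100552718, minus strand) encodes occludin, a membrane protein of tight junctions in endothelia and epithelia. Its normalized counts were 170, 129 and 93.3 in WT and 97.4, 114 and 183 in Sgo1-/+. The highest libraries were Sgo1-/+ replicate 3 and WT replicate 1, 1 from each genotype, and the groups overlapped over nearly their whole range. Those are also the 2 libraries with the highest summed choroid plexus markers. Ttr, the leading marker of that tissue, had 20028 normalized counts in WT replicate 1, 21819.2 in Sgo1-/+ replicate 3 and 113 to 6756.8 in the rest. Within the rest the order differed. Ttr was lowest in Sgo1-/+ replicate 2, where Ocln at 114 was above WT replicate 3 and Sgo1-/+ replicate 1. The part of choroid plexus in the Ocln levels was not tested. Means of Ocln were 131 ± 38.5 and 132 ± 45.4, with a log2 fold change of 0.01 (SE 0.316, 95% interval -0.74 to 0.76) and an exact permutation p of 1. Leaving out Sgo1-/+ replicate 3 gave -0.30, leaving out WT replicate 3 gave -0.18 and leaving out WT replicate 1 gave 0.25. The direction thus changed with the library left out.

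Pecam1 (ENSMUSG00000020717, chr11:106654217-106750628, minus strand) encodes CD31, an adhesion molecule at the contacts between endothelial cells that is also found on platelets and some leukocytes. It had 282, 309 and 272 normalized counts in WT and 642, 234 and 270 in Sgo1-/+. A single library, Sgo1-/+ replicate 1, stood 2.08-fold above the highest of the other 5, which lay close together. The means of 287 ± 18.9 and 382 ± 226 gave a log2 fold change of 0.41 (SE 0.376, 95% interval -0.48 to 1.30), and the exact permutation p was 1. Without Sgo1-/+ replicate 1 the fold change was -0.19, with the 2 remaining Sgo1-/+ libraries under the lowest WT library.

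Slc2a1 and Mfsd2a are both transporters of the barrier, encoded on chromosome 4, and their levels followed a like course over the 6 libraries. Slc2a1 (ENSMUSG00000028645, chr4:119108711-119137330, plus strand) encodes GLUT1, the glucose carrier through which the brain is fed, which astrocytes also make. Mfsd2a (ENSMUSG00000028655, chr4:122946850-122961188, minus strand) encodes a carrier of lysophospholipids such as those holding docosahexaenoic acid, and it keeps vesicle traffic through brain endothelium low. The 250 bases upstream of the start that RefSeq gives each gene (GRCm38.p6) were chosen for the motif ACGTG. Of the 9 members with an upstream sequence in that set, these were the only 2 that held it. ACGTG is 1 form of the core of the hypoxia response element, and the form GCGTG was not searched. The Kdr sequence holds GCGTG, and those of Flt1 and Ocln hold its reverse complement CACGC. The core in both forms therefore does not set Slc2a1 and Mfsd2a apart. Capitals mark ACGTG on the strand of the gene; the other strand was searched as CACGT.
Slc2a1, chr4:119108495-119108744, plus strand: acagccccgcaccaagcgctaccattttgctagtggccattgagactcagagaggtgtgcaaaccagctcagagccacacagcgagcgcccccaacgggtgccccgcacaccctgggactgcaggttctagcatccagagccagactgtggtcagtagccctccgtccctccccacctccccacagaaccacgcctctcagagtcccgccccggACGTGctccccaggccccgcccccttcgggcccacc
Mfsd2a, chr4:122961189-122961438, minus strand: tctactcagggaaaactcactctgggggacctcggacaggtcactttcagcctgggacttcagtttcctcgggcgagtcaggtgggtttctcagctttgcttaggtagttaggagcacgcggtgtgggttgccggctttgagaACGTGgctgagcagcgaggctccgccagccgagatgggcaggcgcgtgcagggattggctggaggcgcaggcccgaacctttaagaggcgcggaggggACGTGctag
The Slc2a1 sequence held 1 match and the Mfsd2a sequence 2, and 16.6% of all 32851 upstream sequences of that length held at least 1. A match of 5 letters is a description of the sequence and not a binding site. Of the other motifs searched on both strands, the KLF family box CCACCC was in 4 of the 9 against 28.1% of all upstream sequences. The SOX and LEF/TCF core ACAAAG was in 2 against 16.5%. Abcb1a held both CCACCC and ACAAAG, in a sequence that lies far upstream of the deposited gene. The ETS core CAGGAA was in 1 (Tek) against 25.7%, and the TATA box TATAAA in 1 (Flt1) against 12.4%. AGAACA, an arm of the glucocorticoid response element, was added after values were seen and was in 1 (Tek) against 16.1%.

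Slc2a1 had 1359.5, 1797.8 and 1080.3 normalized counts in WT and 2044.5, 1129.7 and 1354.6 in Sgo1-/+. The highest 2 libraries were Sgo1-/+ replicate 1 and WT replicate 2, and the lowest 2 were WT replicate 3 and Sgo1-/+ replicate 2, so each genotype spanned most of the range. The means were 1413 ± 362 and 1510 ± 477, with a log2 fold change of 0.10 (SE 0.269, 95% interval -0.54 to 0.73) and an exact permutation p of 0.7. It was -0.18 without Sgo1-/+ replicate 1 and -0.06 without WT replicate 3. Slc2a1 shares 105 exon bases with Gm12868 on the other strand, which had 7.22 ± 2.0 normalized counts in WT and 2.36 ± 1.55 in Sgo1-/+, a small number beside those of Slc2a1. Whether counting used the strand is not given in the sources used here.

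Mfsd2a had 272, 398 and 145 normalized counts in WT and 310, 150 and 191 in Sgo1-/+. As with Slc2a1, WT replicate 2 and Sgo1-/+ replicate 1 were highest and WT replicate 3 and Sgo1-/+ replicate 2 lowest. Its highest library stood 2.74-fold above its lowest, as for Pecam1, whereas the median tested gene differed 1.62-fold between its highest and lowest library. The means of 272 ± 126 and 217 ± 83.1 gave a log2 fold change of -0.32 (SE 0.408, 95% interval -1.29 to 0.64) and an exact permutation p of 0.7. Leaving out single libraries moved the fold change between -0.67 and 0.06, and WT replicate 2 alone turned it above 0.

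Slco1a4 (ENSMUSG00000030237, chr6:141805440-141856199, minus strand) encodes Oatp1a4, a carrier of organic anions, steroid conjugates and drugs in brain endothelium. Its normalized counts were 602, 583 and 550 in WT and 512, 468 and 528 in Sgo1-/+. Every Sgo1-/+ library lay under every WT library, with a gap between the lowest WT and the highest Sgo1-/+ library that was narrower than the spread within either group. The means were 578 ± 26.5 and 503 ± 30.9, a log2 fold change of -0.20 (SE 0.104, 95% interval -0.45 to 0.05). This was the smallest unadjusted edgeR p of the 10 genes, 0.0944, with an adjusted p of 0.9999 and an exact permutation p of 0.1, the smallest possible. The fold change lay between -0.24 and -0.16 with each library left out. Among its close paralogs, which could share reads with it, Slco1a6 had 30.1 ± 15.1 and 26.3 ± 3.9 normalized counts and Slco1a5 6.6 ± 1.49 and 2.71 ± 3.13, in WT and Sgo1-/+.

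Abcb1a (ENSMUSG00000040584, chr5:8660077-8748575, plus strand) encodes P-glycoprotein, the pump that returns many drugs from the endothelial cell to the blood. It had 444, 487 and 513 normalized counts in WT and 648, 486 and 483 in Sgo1-/+. Sgo1-/+ replicate 1 stood above the other 5 libraries, which lay within the WT range. The means of 481 ± 34.9 and 539 ± 94.2 gave a log2 fold change of 0.16 (SE 0.15, 95% interval -0.19 to 0.52) and an exact permutation p of 0.6, and the fold change was 0.01 without Sgo1-/+ replicate 1. Its paralog Abcb1b, which endothelium of rodents makes in smaller amount, had 50.2 ± 28.4 normalized counts in WT and 56.1 ± 9.04 in Sgo1-/+. Abcb1a shares 553 exon bases with Gm42686 on the other strand, a gene that is absent from the deposited table.

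Flt1 (ENSMUSG00000029648, chr5:147561604-147726011, minus strand) encodes VEGF receptor 1, which binds VEGF-A and VEGF-B and can act as a sink for the ligand. Its normalized counts were 1021.1, 1061.7 and 952 in WT and 1108.7, 1067.9 and 1117.3 in Sgo1-/+. All Sgo1-/+ libraries lay above all WT libraries, although the lowest of them was within a few counts of WT replicate 2. Flt1 also had the smallest spread of the 10 genes, 1.17-fold from lowest to highest library. The means were 1011 ± 55.7 and 1098 ± 26.4, a log2 fold change of 0.12 (SE 0.0944, 95% interval -0.11 to 0.34, edgeR adjusted p = 0.9999), with an exact permutation p of 0.1 and a range of 0.08 to 0.15 with each library left out.

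Kdr (ENSMUSG00000062960, chr5:75932827-75978458, minus strand) encodes VEGF receptor 2, the main signalling receptor for VEGF-A. It had 204, 177 and 232 normalized counts in WT and 220, 180 and 215 in Sgo1-/+, so that the Sgo1-/+ values fell inside the WT range. The means were 205 ± 27.6 and 205 ± 21.4, with a log2 fold change of 0.00 (SE 0.161, 95% interval -0.38 to 0.38) and an exact permutation p of 1. Tek (ENSMUSG00000006386, chr4:94739289-94874976, plus strand) encodes Tie2, the receptor of the angiopoietins. It had 169, 137 and 184 normalized counts in WT and 188, 151 and 160 in Sgo1-/+, with means of 163 ± 23.8 and 166 ± 19.2. The groups of Tek overlapped, and the log2 fold change was 0.03 (SE 0.174, 95% interval -0.39 to 0.44) with an exact permutation p of 0.9. Both receptors crossed 0 with single libraries left out, Kdr between -0.09 and 0.10 and Tek between -0.09 and 0.12.

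**Figure D2:**
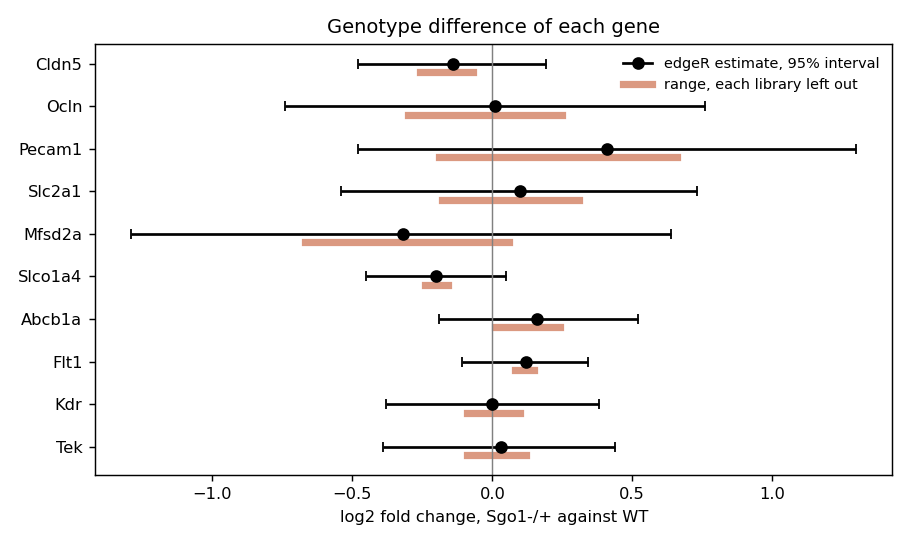
Log2 fold change of Sgo1-/+ against WT (horizontal axis) for each of the 10 genes (vertical axis), as the edgeR estimate (black point) with its 95% interval (black line) and the range of estimates with each library left out (orange bar, ends drawn slightly beyond the values). All 10 intervals include 0, the widest being that of Mfsd2a, -1.29 to 0.64, and the narrowest that of Flt1, -0.11 to 0.34.

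The intervals cover each gene alone, without adjustment over genes, and give the changes compatible with its values. For Flt1, Slco1a4, Cldn5, Kdr, Tek and Abcb1a, the whole interval lay within -0.48 to 0.52, well inside the 2-fold cutoff used in the study. For Mfsd2a and Pecam1 the interval reached past 2-fold, to -1.29 and 1.30, so a 2-fold change of these genes could not be told from none; Ocln and Slc2a1 fell between, at -0.74 to 0.76 and -0.54 to 0.73. The biological coefficient of variation over all genes was 25.9%, and 17.6% without WT replicate 1.

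CPM here is relative to the effective library size, the total over the tested genes times its normalization factor. Scaled by length, as CPM per kilobase of exon, the 10 genes spanned from 34.5 ± 9.03 for Slc2a1 to 1.88 ± 0.203 for Kdr (SD over 6 libraries). Slc2a1 was followed by Cldn5 at 23.3 ± 2.67, Mfsd2a at 9.0 ± 3.69 and Abcb1a at 7.71 ± 1.07. Slco1a4 at 6.98 ± 0.63 and Flt1 at 6.47 ± 0.376 came next, then Pecam1 at 4.45 ± 2.03, Tek at 2.90 ± 0.341 and Ocln at 2.57 ± 0.739. The transporters and the claudin thus headed the order and the tyrosine kinase receptors Tek and Kdr were near its end. Only Cldn5 and Mfsd2a, among neighbours in this order, had no library in common range. All other neighbours overlapped across libraries. Of the 3 junction genes, Cldn5 lay above both Pecam1 and Ocln in every library.

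**Figure D3:**
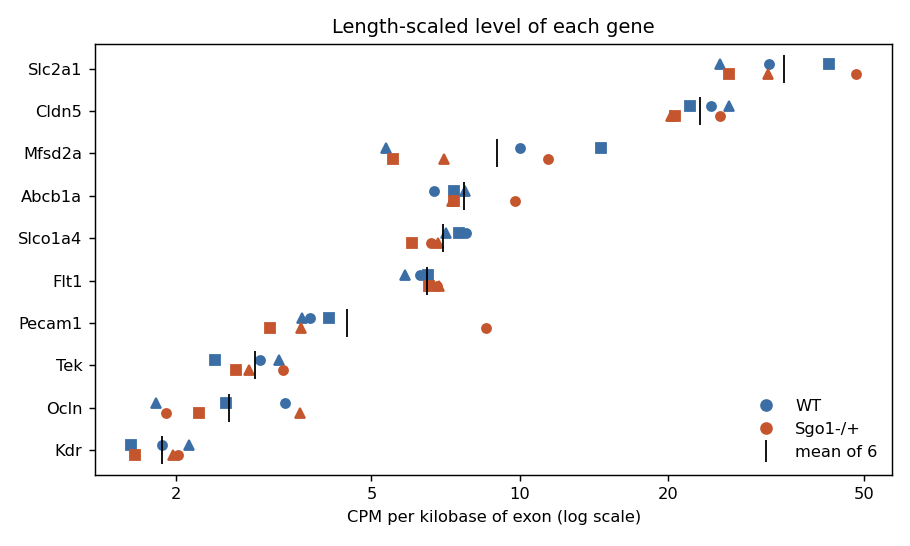
CPM per kilobase of exon (horizontal log axis) of each gene (vertical axis, ordered by mean) in the WT (blue) and Sgo1-/+ (orange) libraries, with circles, squares and triangles for replicates 1, 2 and 3 and a line at the mean of the 6. Slc2a1 and Cldn5 lie above 20, Kdr, Ocln and Tek under 4, and Pecam1 reaches 8.54 in 1 library.

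The genes did not move as 1 block over the libraries. Setting each gene against its own 6-library median, the median log2 ratio of the 10 was 0.16 for Sgo1-/+ replicate 1 and -0.19 for Sgo1-/+ replicate 2, and it ran from -0.02 to 0.04 elsewhere. Sgo1-/+ replicate 1 was the highest library for 4 of the 10 genes, Pecam1, Slc2a1, Abcb1a and Tek, and for 12.2% of all tested genes. For Tek the margin was 1.02-fold and for Slc2a1 1.14-fold, against 1.26-fold for Abcb1a. The 2 highest libraries were WT replicate 2 and Sgo1-/+ replicate 1 for 3 genes, Slc2a1, Mfsd2a and Pecam1, and for 8.48% of tested genes. Cldn5 and Kdr were highest in WT replicate 3, where Slc2a1 and Mfsd2a were lowest. WT replicate 1, which stood apart in regional markers, was the highest library for Slco1a4 and the lowest for Abcb1a. Only these 2 of the 10 genes had an extreme there.

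**Figure D4:**
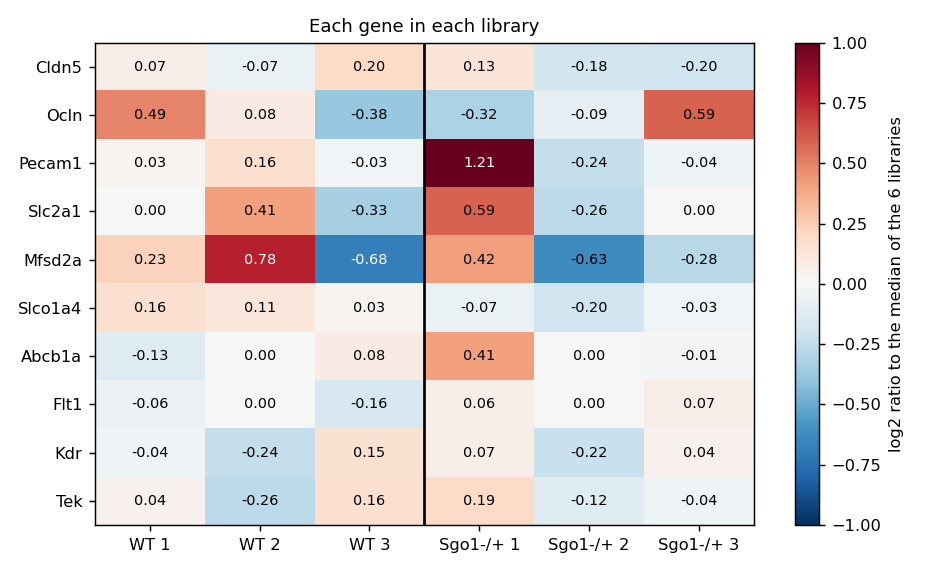
Log2 ratio of each gene (rows) to its own median over the 6 libraries (columns, WT left and Sgo1-/+ right of the line), with the value in each cell and colours that saturate at a 2-fold difference. Slc2a1 and Mfsd2a share their high and low libraries, Ocln is high in WT replicate 1 and Sgo1-/+ replicate 3, and Flt1 and Slco1a4 vary least.

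Further endothelial genes did not pass the test between genotypes either, and most were highest in Sgo1-/+ replicate 1. Of 24 further genes of endothelial identity, 0 passed an unadjusted p under 0.05 in edgeR, against 2.04% of all tested genes. The same 2.04% is the background for the counts past this threshold in the lists below. By sign 19 of the 24 were above 0 and 5 below. Their median log2 fold change was 0.21, which became -0.03 without Sgo1-/+ replicate 1. That library was highest for 17 of the 24, against 12.2% of all tested genes. The summed level of the 24 was 8705 normalized counts in it against 4915 to 6051 in the other 5. Beside Pecam1, the widest margins over the next library belonged to Ly6a (2.20-fold), a surface protein of the Ly6 family, Nos3 (1.95-fold), the endothelial nitric oxide synthase, Ly6c1 (1.67-fold) and Emcn (1.61-fold), a sialomucin of veins and capillaries. Cdh5, which encodes VE-cadherin, was 1.45-fold above the next library. In the same library Flt1, Kdr, Cldn5 and Slco1a4 were at 0.992, 0.945, 0.958 and 0.85 of the highest of the other 5. Markers of mural cells, the pericytes and smooth muscle that wrap the vessels, were at 3077 there, within the 2662 to 3236 of the other 5, and blood markers were at their highest, with Hba-a1 at 6775.2 normalized counts against 540 to 2117.7. This library was picked out once values were known, and the part of blood cells in its endothelial levels was not tested.

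Partners of the junction proteins showed no gene past an unadjusted p under 0.05 among 12. Ctnnb1, beta-catenin, which links adherens junctions to actin and carries Wnt signals, had 5937 ± 338 normalized counts in WT and 6013 ± 203 in Sgo1-/+. Tjp1, which encodes the scaffold ZO-1 that binds claudins and occludin, had 1285, 1185.5 and 1359.3 in WT and 1381.9, 1492.4 and 1514.2 in Sgo1-/+, with no overlap and a log2 fold change of 0.20 (edgeR unadjusted p = 0.0971, adjusted p = 0.9999). Jam2, a junctional adhesion molecule, was the 1 gene of this group with all Sgo1-/+ libraries (571 to 639) under all WT libraries (652 to 823). Of 18 further transporters and receptors of the barrier, 17 were tested and 0 passed, 8 of them above 0 and 9 below. Tfrc, the transferrin receptor that brings iron into the brain, had 1656 ± 307 and 1436 ± 231 normalized counts, a log2 fold change of -0.21. Slc3a2 and Slc6a6, the heavy chain of amino acid carriers and the taurine carrier, were at 0.13 and -0.06. The share of endothelial cells in the whole-tissue levels of these junction and transport genes was not tested.

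Among 13 VEGF and angiopoietin genes, 12 were tested and 0 passed. Vegfa, the ligand of Flt1 and Kdr, had 851 ± 112 normalized counts in WT and 771 ± 42.4 in Sgo1-/+ (log2 fold change -0.14), and Vegfb, a ligand of Flt1 alone of these receptors, had 607 ± 130 and 571 ± 20.7 (-0.09). Ptprb, the phosphatase that holds Tek in check, was at 0.15. Angpt1, the activating ligand of Tek, had 166, 121 and 91.3 in WT and 114, 87.1 and 59.3 in Sgo1-/+, values that overlapped.

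The Wnt pathway that maintains the barrier held the only gene of the vascular lists past an unadjusted p under 0.05. Ndp encodes norrin, a ligand of Fzd4 with Lrp5 and Tspan12. It had 148, 135 and 128 normalized counts in WT and 85.4, 91.2 and 92.1 in Sgo1-/+. The groups lay far apart relative to the spread within them, 137 ± 10.2 against 89.6 ± 3.61, and the log2 fold change was -0.61 (SE 0.159, edgeR unadjusted p = 0.00642, adjusted p = 0.9999, between 0.517 and 1.0 over the alternatives). It lay between -0.66 and -0.55 with each library left out, and at -0.52 with WT replicate 1 and Sgo1-/+ replicate 1 both left out, where it no longer passed the unadjusted threshold (edgeR unadjusted p = 0.0504, adjusted p = 1.0). Ndp therefore did not pass the test over all genes. Of the 16 genes of this list, 1 passed the unadjusted threshold, lower, where 2.04% of all genes did in either direction. The receptors and targets of the pathway overlapped between genotypes. Lrp6, a coreceptor, was at a log2 fold change of 0.01, Wnt7b, a ligand from neurons and glia, at -0.01, and Axin2, a target that feeds back on the pathway, at 0.02. Of the other targets, named after their values were known, Lef1 was at 0.99 (edgeR unadjusted p = 0.0611, adjusted p = 0.9999), with 40.3, 58.1 and 63.9 normalized counts in WT and 60.6, 80.0 and 183 in Sgo1-/+. Apcdd1 was at -0.32 (edgeR unadjusted p = 0.167, adjusted p = 0.9999). With both replicates 1 left out they were at 1.11 and -0.60, and both then passed the unadjusted threshold but not the adjusted one. Wnt7a, the other ligand, had all 3 Sgo1-/+ libraries (108 to 134) under WT (135, 135 and 405), by the margin of 1 count, with WT replicate 1 far above the rest.

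Genes of leaky or activated endothelium numbered 10, of which 7 were tested and 0 passed. Sgo1-/+ replicate 1 was the highest library for 6 of the 10, against 12.2% of all tested genes. The median log2 fold change of the list was 0.28, or -0.14 without that library. Plvap, a component of endothelial windows that mature barrier endothelium lacks, had 170, 141 and 105 normalized counts in WT and 150, 97.3 and 127 in Sgo1-/+. Vcam1, an adhesion molecule for leukocytes, had 270, 278 and 289 in WT and 342, 292 and 381 in Sgo1-/+, a log2 fold change of 0.28 (edgeR unadjusted p = 0.0812, adjusted p = 0.9999) without overlap of the groups. Vwf, von Willebrand factor, had 820 in WT replicate 2 and 877 in Sgo1-/+ replicate 1 and 266 to 357 in the rest, the same 2 high libraries as Slc2a1 and Mfsd2a. The 3 highest genes of the arterial or venous list, Efnb2, Hey1 and Nr2f2, were at 0.16, 0.07 and 0.25, and 0 of its 9 tested genes passed.

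Among markers of the cells around the vessels, 0 of 14 mural genes passed, with a median log2 fold change of 0.02, or -0.05 without WT replicate 1. The leading mural genes Rgs5, Vtn and Pdgfrb were at 0.12, -0.04 and 0.17. The 8 vascular fibroblast genes were all below 0 with a median of -0.62 and 0 passed. Sgo1-/+ replicate 2 was the lowest library for 7 of them, and Col1a2, a fibrillar collagen chain, was at -1.04 (edgeR unadjusted p = 0.0589, adjusted p = 0.9999). Astrocytes, which make Slc2a1 too, had 0 of 10 past the threshold and a median of -0.12, which turned to 0.07 without WT replicate 1, the highest library for 7 of the 10. Of 8 microglial genes, Csf1r passed the unadjusted threshold at 0.38 (edgeR unadjusted p = 0.0384, adjusted p = 0.9999) and 7 were above 0. WT replicate 1 was the lowest library for 7 of the 8, and without it the list median went from 0.30 to 0.18 and Csf1r to 0.24. The list medians for blood and choroid plexus were 0.37 and 0.00, with 0 genes past the threshold in each, and that for blood was -1.53 without Sgo1-/+ replicate 1. Leaving out WT replicate 1 gave 0.94 for choroid plexus, leaving out Sgo1-/+ replicate 1 gave 0.34, and leaving out both gave 1.43. For cerebral cortex the median was 0.41, or 0.04 without WT replicate 1, and 0 genes passed. For cerebellum and brain stem it was -3.12 with 3 genes lower (Slc6a5, Glra1 and Cbln1), and -0.07 without WT replicate 1.

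**Figure D5:**
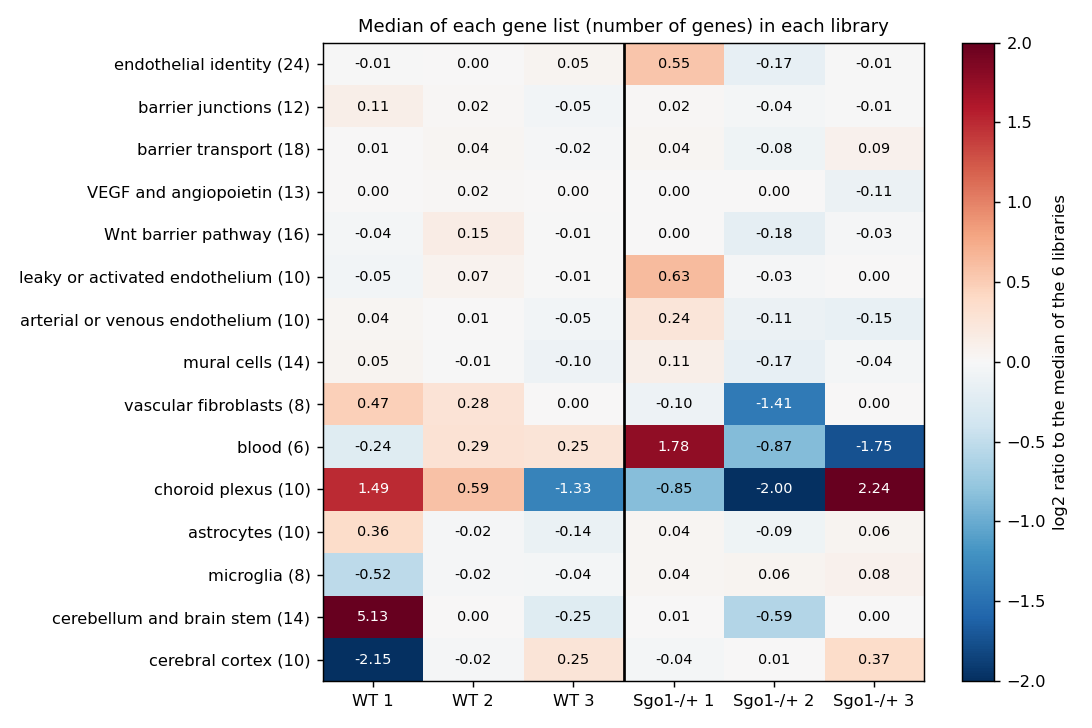
Median over each gene list (rows, number of genes in parentheses) of the log2 ratio to each gene's median over the 6 libraries (columns, WT left and Sgo1-/+ right of the line), with the value in each cell and colours that saturate at -2.0 and 2.0. In Sgo1-/+ replicate 1, endothelial identity is at 0.55, leaky or activated endothelium at 0.63 and blood at 1.78. Barrier junctions and barrier transport stay between -0.08 and 0.11 in all 6 libraries.

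The genes most like the mean of the 10 over the 6 libraries, among 11286 genes with a mean of at least 100 normalized counts, were Dnajc19, 4731419I09Rik, Naa10, Ptpn11 and Ifih1, each at a Pearson r of 0.98. With 6 libraries and this many genes compared, high values of r are a description and carry no test. Gene by gene, looked at after values were seen, the patterns of Slc2a1 and Sgk1 were alike at an r of 0.99. Sgk1, which encodes a serine/threonine kinase, had 1116.8, 2370 and 694 normalized counts in WT and 3058.8, 849 and 1358.7 in Sgo1-/+. Txnip was also at 0.99 to Slc2a1, and Klf15 and Tprgl were at 0.98. Mfsd2a was most like Nhlrc2, Abcc9, Itih5 and Htra1 at 0.99 and Apod at 0.98. Pecam1 was most like Rasip1 and Gadl1 at 0.99 and Tgm2, Ino80c and Rps26 at 0.98.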

How the data were processed

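Total RNA from 24-month-old mouse brain, described as cerebrum, was sequenced as paired reads on an Illumina MiSeq. The authors aligned the reads to mm10 in Strand NGS and deposited an estimated count per Ensembl gene and library, without normalization; the release and strand setting are not given in the sources used here. The authors also deposited normalized values (DESeq, log2, with the median of each gene subtracted), used here in 1 alternative. Columns of the authors' own comparison, a log2 fold change and a signed and an unsigned fold, were not used.

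Estimated counts were rounded and fitted with edgeR 4.0.16 in R 4.3.3 (quasi-likelihood test without covariates, Benjamini-Hochberg adjustment) after TMM normalization and filterByExpr with its default settings, which kept 16337 genes. To give normalized counts, each estimated count was scaled to the mean effective library size. Levels used the union of GENCODE vM21 exons. The edgeR and DESeq2 fits and limma on log2 counts were run on simulated counts. Their spread was the same for every gene and lower than in these data, and no library was made to stand apart. The simulation therefore does not show how the fits perform on these libraries, and limma on the deposited values was not part of it. Alternatives used DESeq2 1.42.0 (Wald test), limma 3.58.1, other filters, size factors, sex, a replicate block and libraries left out. Every member, Sgo1, paralogs of members and, from each list, the 3 genes highest in mean normalized count and up to 4 with the smallest p under 0.05 were named, with the 5 genes most like the mean of the members; other genes were named once values were known. The members and lists were chosen with earlier results of these data known. Each library is 1 mouse, and p-values set the difference between groups against the spread between libraries within groups. Reads carry no molecular identifiers, so the floor of 3 counts covers counting error only. Upstream sequences are from RefSeq (GRCm38.p6), which holds 9 of the 10 members. Ocln has several starts there, of which the first listed was used. The Abcb1a sequence, chr5:8566841-8567090, lies far upstream of the deposited gene, which begins at 8660077.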

Additional observations from a re-analysis of the deposited data

How the results depend on the processing

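In none of 16 alternatives did any of the 10 genes pass an adjusted p under 0.05, and 139 of 160 log2 fold changes kept their direction. Over all genes, 0 passed the threshold, against 3 with DESeq2, 11 with limma on the deposited values, 1 in females only, 1 without both replicates 1 (chosen after seeing the data) and 0 to 1 with single libraries left out. At an unadjusted p under 0.05 there were 333 genes, against 870 with limma on the deposited values, 563 without a filter, 578 in females only, 778 without both replicates 1 and 240 to 1040 with single libraries left out. Of the 10 genes 0 passed that threshold, against 1 (Slco1a4, at -0.21) with limma on the deposited values. Of the vascular lists 1 gene passed it (Ndp), against 3 with DESeq2, 2 without a filter, 2 with sex as a covariate and 5 in females only. The count was 9 without both replicates 1 (adjusted p from 0.713, Ndp not among them) and 1 to 4 with single libraries left out. These lists held 24, 12, 17, 12, 16, 7 and 9 tested genes in the main fit, with some genes shared between lists. Over all tested genes the share in the main fit was 2.04%. Counts over all genes were 444 with DESeq2 and 332 with sex as a covariate, and those of the other settings are given above. Shares of the lists under the alternatives were not computed. Groups did not overlap for 2 of the 10 genes, for 5 without both replicates 1 (31.8% of tested genes), for 4 without Sgo1-/+ replicate 1 (14.6%), and for 2 to 4 with single libraries left out.

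The 21 fold changes that turned direction belonged to 7 genes. Without both replicates 1 these were Pecam1 (-0.20), Slc2a1 (-0.21), Abcb1a (-0.04), Kdr (-0.05) and Tek (-0.05). Kdr was at -0.001 without a filter and -0.0024 with sex as a covariate, and Ocln at -0.0017 with limma on log2 counts. With single libraries left out the ranges were -0.30 to 0.25 for Ocln, -0.19 to 0.66 for Pecam1, -0.18 to 0.31 for Slc2a1, -0.67 to 0.06 for Mfsd2a, -0.09 to 0.10 for Kdr and -0.09 to 0.12 for Tek. Replicate numbers did not pair the mice (r across genes of -0.146, 0.014 and -0.207 for the same numbers). With the replicate block, 3 genes of the vascular lists and 280 of all genes passed the unadjusted threshold, 0 genes passed the adjusted one, and Ocln was at -0.0045. The cause of these shifts was not tested. All 10 levels moved by less than 1 SD with DESeq2 size factors. With 3 mice a group, changes inside the interval given for each gene were compatible with its values. What size of change could be detected at the spread of these data was not tested.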
